A study of Mus musculus with 10 samples.

Results

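The matrix metalloproteinases (MMPs), the ADAMTS proteases and the tissue inhibitors of metalloproteinases (TIMPs) were followed in bulk RNA sequencing of 10 gastric tumours of mice. All genes whose symbol was Mmp, Adamts or Timp with a number were taken, whatever their level, which gave 46 of the 56748 genes in the deposited table: 23 MMP, 19 ADAMTS and 4 TIMP genes. Of the tumours, 5 were of an inflamed type and 5 of a desert type, and the series compares these types. Inflamed tumours were labelled as genetic mutants of genotype Tff1-CreERT2;Apcfl/fl;Trp53fl/fl, in which a Cre recombinase that acts only with tamoxifen is made by cells that use the Tff1 promoter (Tff1 is a peptide of gastric surface mucous cells) and floxed Apc and Trp53 are its targets. Desert tumours were labelled as orthotopic allografts with wild type as genotype. The sources used here do not say whether wild type means the host or the graft, whether the graft comes from 1 clone or what alterations it has, nor the age and strain of the mice. All 10 tumours carry the tissue label stomach. Inflamed or desert type, genotype and model thus coincide and cannot be told apart. Nothing in the labels says how far the tumours of a group are independent animals, so the tests measure the spread between these libraries.

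MMPs are zinc-dependent enzymes that cut collagens, elastin, laminins and other proteins of the extracellular matrix, and also free or activate growth factors and cytokines. Most are secreted as inactive precursors, and a smaller set is anchored in the cell membrane. The secreted ADAMTS proteases carry thrombospondin repeats and mainly trim proteoglycans such as versican and aggrecan or process procollagens. TIMPs bind to the active site of MMPs, and Timp3 also inhibits several ADAMTS proteases.

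The libraries held 15474313 to 15975770 reads in genes in inflamed tumours and 14148147 to 16951640 in desert tumours. Values are FPKM, reads scaled by gene length and library size, so levels can be set beside each other across genes. Differences are inflamed minus desert on log2(FPKM + 1), a scale that shrinks the change of genes at low level. Adjusted p-values are from limma with Benjamini-Hochberg adjustment over the 16750 genes whose mean was at least 0.5 FPKM, and a gene was called at an adjusted p under 0.05. The stomach label was checked against 8 gastric epithelial markers (Gkn1, Gkn2, Tff1, Tff2, Muc5ac, Muc6, Pgc, Atp4b). Their summed level was 7756 to 42035 FPKM in inflamed tumours and 13.4 to 39.0 FPKM in desert tumours, where Tff1 was at 0 in 4 of 5 libraries and Muc6, with 7.07 to 35.4 FPKM, was the highest of them in every library. The other gastric markers had at most 3.88 FPKM in any desert tumour. By contrast, 5 general epithelial markers summed to 3204 to 6260 FPKM in inflamed tumours and 1503 to 2195 FPKM in desert tumours. In bulk tissue, fewer cells of a type and less RNA per cell cannot be told apart.

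A run of 10 MMP genes lies side by side on chromosome 9, and the 3 largest differences among the members on log2(FPKM + 1), those of Mmp10, Mmp13 and Mmp3, came from this cluster. At a pseudocount of 0.01 Mmp10 and Mmp13 still exceeded Mmp3 (4.87). At that setting Mmp9 (4.99) and, in the other direction, Adamts18 (-6.87) were larger than Mmp3. In the order Mmp13, Mmp12, Mmp1b, Mmp3, Mmp1a, Mmp10, Mmp8, Mmp27, Mmp20 and Mmp7, they fill 427.0 kb (chromosome 9, 7272514 to 7699586 in the deposited table, which names no build) with 0 other protein-coding genes between them. The 150 bases before the start are shown for the 4 cluster genes that differed by more than 2 log2 units, and for Mmp28, a called MMP on chromosome 11, as a contrast. The sequences are those of RefSeq on GRCm38.p6, 5′ to 3′ on the strand of the gene. Capitals mark TGANTCA, the form of the site that AP-1 (Fos and Jun family) factors are known to bind, and TATAAA, the core of the TATA box.
Mmp13, chr9:7272364-7272513, plus strand: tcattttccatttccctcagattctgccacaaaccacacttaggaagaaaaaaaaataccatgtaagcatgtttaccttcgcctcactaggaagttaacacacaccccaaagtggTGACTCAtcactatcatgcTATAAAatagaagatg
Mmp3, chr9:7445672-7445821, plus strand: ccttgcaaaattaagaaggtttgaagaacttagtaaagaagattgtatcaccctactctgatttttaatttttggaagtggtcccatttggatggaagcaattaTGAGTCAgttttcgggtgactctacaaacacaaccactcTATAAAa
Mmp10, chr9:7502192-7502341, plus strand: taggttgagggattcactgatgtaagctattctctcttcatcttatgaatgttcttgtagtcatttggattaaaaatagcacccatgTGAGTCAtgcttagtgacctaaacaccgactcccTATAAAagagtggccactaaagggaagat
Mmp7, chr9:7691940-7692089, plus strand: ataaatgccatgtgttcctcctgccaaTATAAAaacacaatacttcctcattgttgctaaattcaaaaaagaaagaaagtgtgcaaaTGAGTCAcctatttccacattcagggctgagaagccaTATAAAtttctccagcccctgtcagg
Mmp28, chr11:83463041-83463190, minus strand: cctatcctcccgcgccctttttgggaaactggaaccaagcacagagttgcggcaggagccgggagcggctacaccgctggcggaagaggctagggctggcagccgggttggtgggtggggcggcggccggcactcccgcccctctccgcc

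Each of the 4 cluster promoters holds TGANTCA upstream of a TATAAA close to the start, and the Mmp28 promoter holds neither. In Mmp10, TGAGTCA begins 63 bases before the start and TATAAA 29 bases before it. In Mmp13 the letters are TGACTCA at 35 bases and TATAAA at 16 bases. Mmp7 has the same TGAGTCA as Mmp10 at the same distance of 63 bases, with TATAAA at 123 and at 26 bases. The 250 bases before the most upstream listed start were searched in the 32 members that the promoter table holds. It lacks Mmp2, Mmp9, Mmp16, Mmp17 and Mmp19 and, of the called ADAMTS genes, Adamts4, Adamts7 and Adamts10. The promoters of these genes, among them the called Mmp9 and Mmp19, were thus not searched. TGANTCA equals its own reverse complement, so both strands were read at once, TATAAA was read on the strand of the gene, and no 2 matches overlapped. TGANTCA was found in 7 of the 10 cluster genes (70.0%), in 0 of 8 MMPs elsewhere, in 0 of 10 ADAMTS genes and in 0 of 4 TIMPs, against 6.85% of all 27025 promoters in the table. TATAAA was found in 7 cluster genes too, in 1 of 8 other MMPs (Mmp21), in 1 ADAMTS gene (Adamts1) and in 0 TIMPs, against 8.13% of all promoters. The same 7 cluster genes, Mmp13, Mmp1b, Mmp3, Mmp1a, Mmp10, Mmp20 and Mmp7, held both, against 0.866% of all promoters. Mmp8, Mmp27 and the most upstream start of Mmp12 held neither, though a second listed start of Mmp12 has TGAGTCA at 44 bases. These are matches of letters, not measured binding. Of the 7 genes with both, Mmp13, Mmp3, Mmp10 and Mmp7 were among the called genes and Mmp1a, Mmp1b and Mmp20 were too low to be tested, so promoters with both motifs include genes below the filter on low values.

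Of the 46 members, 29 passed the filter on low values, 14 MMPs, 12 ADAMTS genes and 3 TIMPs. In inflamed tumours 14 of these were higher, against 31.0% of all tested genes, and 6 were lower, against 31.2% of all tested genes, while 9 were not called. In either direction that is 20 of 29 members, against 62.2% of all tested genes. A gene that is high in only 1 group passes the filter through that group, so the counts describe the detected members. The families split. MMPs counted 10 higher and 1 lower of 14, ADAMTS genes 4 higher and 3 lower of 12, and TIMPs 0 higher and 2 lower of 3. The median log2 difference was 1.97 over the tested MMPs, 0.23 over the ADAMTS genes and -0.71 over the TIMPs, beside -0.01 over all tested genes. By size, 7 members, all MMPs, were called with a difference of at least 2, against 5.10% of all tested genes, and 0 members with -2 or less, against 2.10%. That 0 depends on the pseudocount and the scaling, since Adamts17 was -1.98 and Adamts18 -1.35 here but -2.56 and -3.87 with a pseudocount of 0.1, and -2.69 and -2.77 under TPM. All 5 inflamed tumours lay above all 5 desert tumours in 9 tested members (8 MMPs and Adamts9), against 24.4% of all tested genes, and below them in 5 (3 ADAMTS genes and 2 TIMPs), against 24.4%, so that 14 of 29 did not overlap, against 48.9%. The scaling moves these shares, since over all tested genes the split was 5197 higher and 5221 lower in FPKM but 3769 higher and 6989 lower after rescaling to TPM, which shifted the median difference of all genes to -0.28. After that rescaling 12 members were higher and 6 lower.

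**Figure D1:**
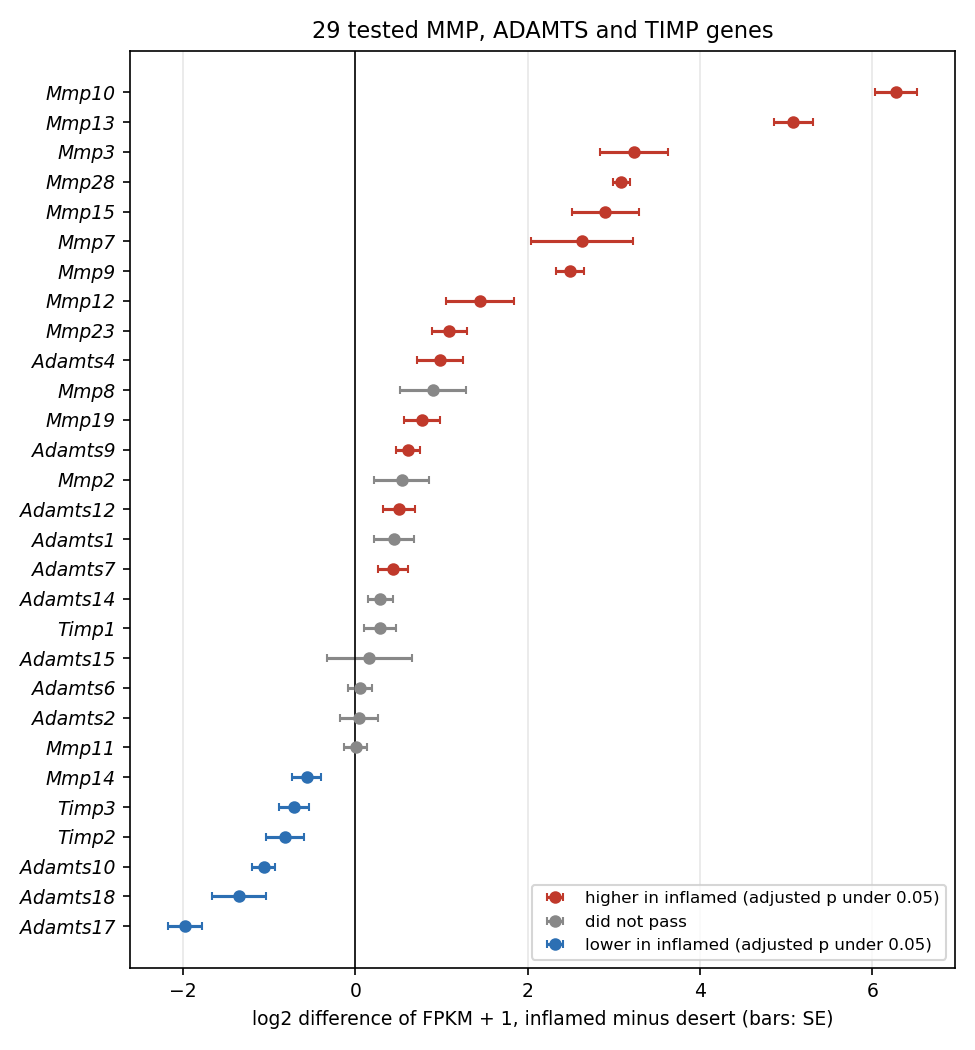
Log2 difference in log2(FPKM + 1), inflamed minus desert, for each tested member (points, with bars of 1 SE), in order of size, with n = 5 tumours a group and colours for the call. The MMPs reach 6.27 (Mmp10), the ADAMTS genes lie on both sides of 0, and 2 of the 3 TIMPs lie below 0.

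Among the collagenases, which cut fibrillar collagen, Mmp13 was the member with appreciable expression. Mmp13 (ENSMUSG00000050578), the main interstitial collagenase of mice, had 46.3, 66.7, 51.2, 32.5 and 29.8 FPKM in inflamed tumours 1 to 5, against 0.780, 0.396, 0.0232, 0.433 and 0.0592 FPKM in desert tumours 1 to 5. Every inflamed tumour was far above every desert tumour, with a log2 difference of 5.08 (SE 0.23, adjusted p = 2.45e-08). Mmp8, the collagenase stored in neutrophil granules, had 2.65, 2.96, 2.71, 0.0813 and 0.227 FPKM in inflamed tumours, against 0.215, 0.582, 0.154, 0.282 and 0.109 FPKM in desert tumours. The first 3 inflamed tumours were above the desert tumours and inflamed tumours 4 and 5 were within or below their range. Its log2 difference of 0.90 (SE 0.38) was not called at an adjusted p of 0.0592, but it was 1.18 with an adjusted p of 0.00978 without inflamed tumour 4 and 1.13 with an adjusted p of 0.02 without inflamed tumour 5. Over all alternatives its adjusted p ran between 1.93e-05 and 0.209. The other collagenases, Mmp1a and Mmp1b, the mouse counterparts of human interstitial collagenase, had at most 0.0564 and 0.0843 FPKM in inflamed tumours. They had 0 reads in all desert tumours, where 3 reads, the limit that a count of 0 allows, would be 0.0784 to 0.0972 FPKM of Mmp1a and 0.109 to 0.135 FPKM of Mmp1b, a range that counts sampling of reads alone.

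The stromelysins and matrilysin cut a broad set of matrix proteins and activate other MMPs. Mmp10 (stromelysin-2, ENSMUSG00000047562) showed the widest gap of all members, with 96.9, 148, 85.2, 49.4 and 58.0 FPKM in inflamed tumours, against 0, 0.171, 0, 0.0611 and 0.0918 FPKM in desert tumours. These were 1294 to 4301 reads per inflamed library and 0 to 5 reads per desert library, and the log2 difference was 6.27 (SE 0.25, adjusted p = 1.01e-08). Mmp3 (stromelysin-1, ENSMUSG00000043613), known as a product of stromal cells, had 18.7, 28.8, 18.2, 6.79 and 7.09 FPKM in inflamed tumours, against 0.145, 0.523, 0.241, 0.555 and 1.84 FPKM in desert tumours. The groups did not overlap, and its log2 difference was 3.23 (SE 0.39, adjusted p = 3.48e-05). Mmp10 and Mmp3 are close relatives, and the sources used here do not say how reads that match both were assigned.

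Mmp7 (matrilysin, ENSMUSG00000018623) is made by epithelial cells rather than stroma, and in the mouse intestine it activates defensins. By mean it was the most abundant member in inflamed tumours, with a mean ± SD of 161 ± 134 FPKM in the inflamed group and 18.1 ± 6.51 FPKM in the desert group (n = 5 each). Inflamed tumours 1 to 5 had 354, 230.1, 137, 29.7 and 53.5 FPKM, and desert tumours 1 to 5 had 17.8, 12.0, 16.3, 29.1 and 15.4 FPKM. The inflamed tumours spread over more than a factor of 10, and the lowest of them, tumour 4, was just above the highest desert tumour. The log2 difference was 2.63 (SE 0.59, adjusted p = 0.00254). Unlike its cluster neighbours Mmp10, Mmp13 and Mmp3, Mmp7 was thus well expressed in every desert tumour.

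Mmp12, the elastase of macrophages, had 5.97, 7.09, 9.66, 1.45 and 4.49 FPKM in inflamed tumours, against 2.42, 2.23, 0.901, 1.06 and 0.233 FPKM in desert tumours. It was higher by 1.45 log2 units (SE 0.39, adjusted p = 0.0079), though inflamed tumour 4 lay among the desert tumours. The 9 macrophage markers summed to 103 to 427 FPKM in inflamed tumours and 101 to 291 FPKM in desert tumours, and 2 of 9 were higher and 0 lower, so the groups overlapped in them. None of the 9 was at 0 in all tumours of a group, and their part in the Mmp12 difference was not tested. Mmp11, stromelysin-3, which furin activates inside the cell, had 1.82 to 3.07 FPKM in inflamed tumours and 1.82 to 3.01 FPKM in desert tumours and was not called (log2 difference 0.01, SE 0.13, adjusted p = 0.969). That sign turned under other scalings.

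**Figure D2:**
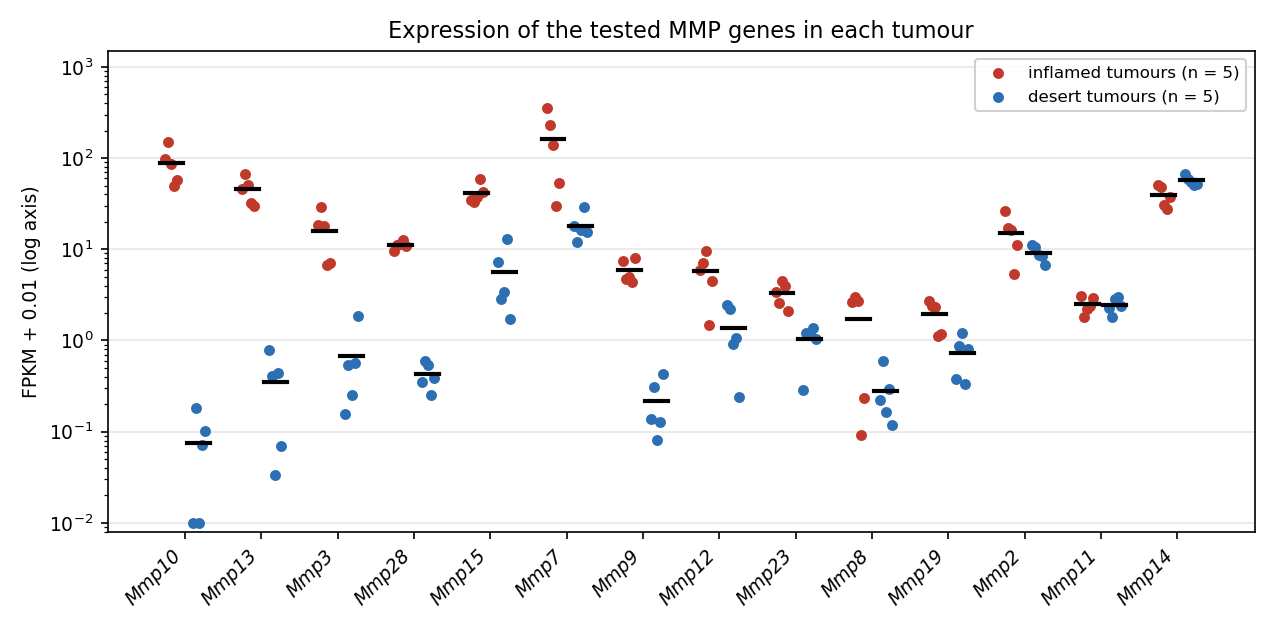
FPKM + 0.01 on a log axis for the tested MMPs, with a point for each tumour, inflamed to the left of desert for each gene, and a line for each group's mean. Mmp10, Mmp13, Mmp3, Mmp28, Mmp15, Mmp9 and Mmp23 separate the groups, Mmp7 nearly touches, and Mmp14 is the MMP that is lower in inflamed tumours.

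Seen along chromosome 9, all called genes of the cluster were higher, and the called genes around it went in both directions. Of the 10 cluster genes 6 were tested, 5 were called higher (Mmp13, Mmp12, Mmp3, Mmp10, Mmp7) and Mmp8 was not called. Of the 3 nearest protein-coding genes on each side, 5 were tested. On one side the motor protein gene Dync2h1 was lower (-0.65, SE 0.17, adjusted p = 0.00635), and Dcun1d5, 88 kb before Mmp13, was not called (0.15, SE 0.10, adjusted p = 0.234). On the other side Tmem123 was lower (-0.71, adjusted p = 0.000152), Birc2 was lower (-0.27, adjusted p = 0.011) and Birc3, an inhibitor of cell death that NF-kappaB induces, was higher (0.87, SE 0.15, adjusted p = 0.000539). These flanking differences were all below 1 log2 unit in size, while 4 of the 5 called cluster genes exceeded 2.

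**Figure D3:**
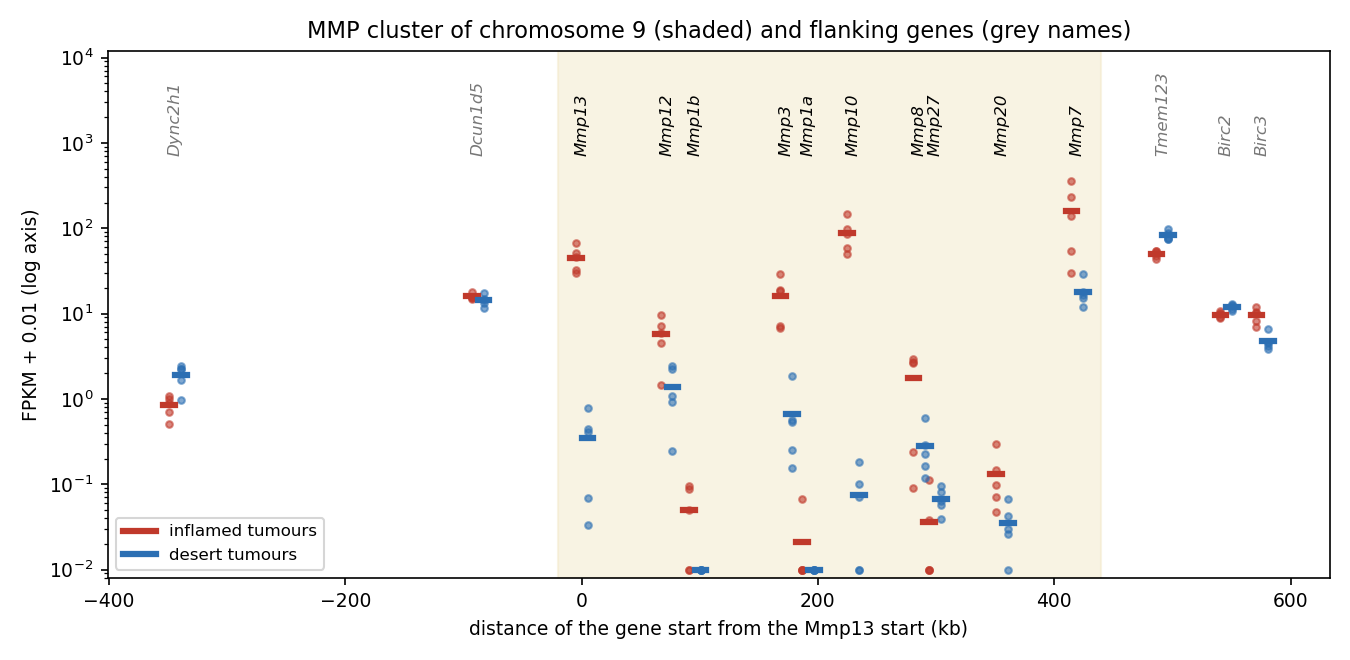
FPKM + 0.01 on a log axis for the genes of the chromosome 9 MMP cluster (shaded) and nearest protein-coding neighbours, in inflamed and desert tumours (points, with a line for the mean), by distance in kb from the start of Mmp13. Mmp13, Mmp3 and Mmp10 stand apart between the groups and Mmp7 nearly touches. The means of the flanking genes lie closer together, though Tmem123, Birc2 and Birc3 do not overlap between the groups.

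The genes of 12 AP-1, ETS and Runx2 factors, known regulators of MMP genes, were read as well. Of the 12, 6 were higher, 4 were lower and 2 were not called, beside 31.0% and 31.2% of all tested genes. Fos had 31.0, 42.0, 36.2, 89.0 and 33.2 FPKM in inflamed tumours, against 12.0, 5.20, 14.3, 4.98 and 6.01 FPKM in desert tumours (2.31, SE 0.34, adjusted p = 0.000157). Junb had 50.7 to 89.1 FPKM in inflamed tumours and 12.5 to 20.6 FPKM in desert tumours (1.98, SE 0.17, adjusted p = 3.39e-06). Fos, Fosb, Fosl1, Fosl2, Junb and Runx2 made up the higher genes. In the other direction Jun, the classical partner of Fos, had 51.8 to 70.0 FPKM in inflamed tumours and 78.6 to 106 FPKM in desert tumours (-0.58, SE 0.12, adjusted p = 0.00111), and the ETS gene Etv5 had 24.3 to 77.7 FPKM in inflamed tumours and 98.3 to 251 FPKM in desert tumours (-1.63, SE 0.35, adjusted p = 0.00188). RNA levels do not show the binding or activity of these factors. Their part in the MMP differences was not tested.

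Of the gelatinases, which cut denatured collagen and basement membrane collagen, Mmp9 was called and Mmp2 was not. Mmp9 (gelatinase B, ENSMUSG00000017737), abundant in neutrophils and macrophages, had 7.36, 4.71, 4.96, 4.42 and 8.10 FPKM in inflamed tumours, against 0.129, 0.299, 0.0702, 0.119 and 0.417 FPKM in desert tumours. All inflamed tumours were above all desert tumours, by 2.49 log2 units (SE 0.17, adjusted p = 3.96e-07). Mmp2 (gelatinase A), a fibroblast product, had 26.0, 16.9, 16.2, 5.32 and 11.1 FPKM in inflamed tumours, against 11.0, 10.7, 8.61, 8.41 and 6.79 FPKM in desert tumours. Inflamed tumour 4 was the lowest of all 10, and the log2 difference of 0.54 (SE 0.32) was not called at an adjusted p of 0.169. Without inflamed tumour 4 it was 0.84 with an adjusted p of 0.00681, and over all alternatives the adjusted p ran between 0.00152 and 0.554. The 10 fibroblast markers summed to 101 to 292 FPKM in inflamed tumours and 63.0 to 133 FPKM in desert tumours, with 3 higher and 0 lower of 8 tested, and their part in the Mmp2 values was not tested.

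The membrane-type MMPs act at the cell surface, and the pair that was expressed went in opposite directions. Mmp15 (MT2-MMP, ENSMUSG00000031790) had 35.1, 32.9, 37.6, 59.5 and 42.5 FPKM in inflamed tumours, against 7.29, 2.84, 3.40, 13.1 and 1.71 FPKM in desert tumours. It was above the desert range in all inflamed tumours, by 2.90 log2 units (SE 0.39, adjusted p = 7.74e-05), and it was highest in inflamed tumour 4, where Mmp10, Mmp3 and Mmp7 were lowest. Mmp14 (MT1-MMP, ENSMUSG00000000957), which activates Mmp2 together with Timp2, had 50.7, 48.1, 30.3, 27.9 and 37.8 FPKM in inflamed tumours, against 66.9, 59.0, 54.9, 50.4 and 52.6 FPKM in desert tumours. It was the 1 MMP called lower (-0.56, SE 0.17, adjusted p = 0.0126), and the ranges overlapped by a narrow margin, at inflamed tumour 1 and desert tumour 4. When inflamed tumours 4 and 5 were left out the difference was -0.42 with an adjusted p of 0.0661, the highest of all alternatives, the lowest being 0.00217. The other 4, Mmp16, Mmp17, Mmp24 and Mmp25, were below the filter, with at most 0.794 FPKM (Mmp17 in inflamed tumour 4). Mmp24 had 0.104 to 0.293 FPKM in inflamed tumours and 0.0126 to 0.0674 FPKM in desert tumours, without overlap. That is only 8 to 24 reads per inflamed library and 1 to 6 reads per desert library. In GENCODE M21 its exons share 637 of 4683 bases with BC029722, which averaged 5.93 FPKM in inflamed tumours and 2.77 FPKM in desert tumours. Reads in the shared stretch cannot be told apart without strand.

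Among the remaining MMPs, Mmp28 (epilysin, ENSMUSG00000020682), an MMP of epithelia, had the smallest SE of the tested members. Its values were 9.53, 11.0, 11.3, 12.5 and 10.8 FPKM in inflamed tumours, against 0.336, 0.593, 0.529, 0.244 and 0.381 FPKM in desert tumours, a log2 difference of 3.09 (SE 0.10, adjusted p = 2.54e-09). In GENCODE M21 its exons share 466 of 3874 bases with 1700020L24Rik, which averaged 7.93 FPKM in inflamed tumours and 0.402 FPKM in desert tumours. The sources used here do not say whether reads were assigned by strand, and reads in the shared stretch cannot be told apart. Mmp23 had 3.40, 2.59, 4.42, 3.96 and 2.09 FPKM in inflamed tumours, against 0.279, 1.21, 1.19, 1.37 and 1.04 FPKM in desert tumours (1.09, SE 0.20, adjusted p = 0.000746), without overlap. Mmp19 had 2.70, 2.40, 2.35, 1.12 and 1.18 FPKM in inflamed tumours, against 0.369, 0.850, 1.21, 0.327 and 0.806 FPKM in desert tumours (0.77, SE 0.21, adjusted p = 0.00727). Its inflamed tumours 4 and 5 were just below desert tumour 3. Mmp20 (the enamel protease), Mmp21 and Mmp27 stayed at or below 0.289 FPKM in all tumours.

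Of the proteoglycan-cleaving ADAMTS genes, Adamts4 and Adamts9 were called. Adamts4 (aggrecanase-1) had 4.14, 5.11, 3.78, 0.970 and 2.50 FPKM in inflamed tumours, against 0.718, 1.39, 0.969, 1.10 and 1.03 FPKM in desert tumours. It was higher by 0.98 (SE 0.27, adjusted p = 0.00797), with inflamed tumour 4 among the desert tumours. Adamts9, a versican-cleaving protease, had 0.515 to 1.35 FPKM in inflamed tumours and 0.199 to 0.384 FPKM in desert tumours, without overlap (0.61, SE 0.14, adjusted p = 0.00317). Adamts1 had 1.69 to 4.79 FPKM in inflamed tumours and 1.52 to 3.80 FPKM in desert tumours and was not called (0.45, SE 0.24, adjusted p = 0.118). It was 0.62 with an adjusted p of 0.0246 without inflamed tumour 4, and 0.61 with an adjusted p of 0.0339 without desert tumour 2, over a range of 0.0144 to 0.443 in all alternatives. Adamts15 varied more within groups than between them, with 1.85 to 10.3 FPKM in inflamed tumours and 1.63 to 10.1 FPKM in desert tumours (0.16, SE 0.50, adjusted p = 0.793), and its sign turned when single libraries were left out. Adamts5 (aggrecanase-2) and Adamts8 were below the filter, and Adamts5 had at most 0.386 FPKM in any tumour. Adamts8 had 0.167 to 0.372 FPKM in inflamed tumours and 0 to 0.155 FPKM in desert tumours, without overlap. That is 13 to 30 reads per inflamed library and 0 to 11 reads per desert library, so the gap rests on few reads. Adamts20, the gene altered in belted mice, was also below it but had 0.00679 to 0.0219 FPKM in inflamed tumours and 0.141 to 0.589 FPKM in desert tumours.

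The procollagen proteinases, which trim collagen precursors so that they can form fibrils, were not called. Adamts2 had 1.02 to 3.59 FPKM in inflamed tumours and 1.40 to 2.73 FPKM in desert tumours (0.05, SE 0.22, adjusted p = 0.867), with a sign that turned under other scalings. Adamts14 had 0.294 to 1.04 FPKM in inflamed tumours and 0.182 to 0.487 FPKM in desert tumours (0.29, SE 0.14, adjusted p = 0.104), and its adjusted p was 0.0386 without inflamed tumour 5, within a range of 0.0118 to 0.708. Adamts3 was below the filter, with 0.133 to 0.450 FPKM in inflamed tumours and 0 to 0.0542 FPKM in desert tumours. Of the collagens on the substrate list, Col3a1 was higher (23.3 to 73.3 FPKM in inflamed tumours and 8.99 to 32.0 FPKM in desert tumours, 1.07, SE 0.36, adjusted p = 0.0231), Col2a1 was lower, and Col1a2 (adjusted p = 0.0852) and Col1a1 were not called. Col1a1 was the most abundant of these in inflamed tumours by mean (28.3 to 97.9 FPKM in inflamed tumours and 12.8 to 49.6 FPKM in desert tumours, adjusted p = 0.0751).

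Adamts7 and Adamts12 cut cartilage oligomeric matrix protein (COMP), and both passed the threshold narrowly. Adamts7 had 3.46, 2.80, 2.76, 1.84 and 2.12 FPKM in inflamed tumours, against 2.50, 1.24, 1.55, 1.07 and 1.98 FPKM in desert tumours (0.44, SE 0.17, adjusted p = 0.0437). Adamts12 had 0.391 to 1.85 FPKM in inflamed tumours and 0.375 to 0.808 FPKM in desert tumours (0.50, SE 0.18, adjusted p = 0.0328). The groups overlapped in both, and the call was lost in 10 of 20 alternatives for Adamts7, including when any of inflamed tumours 1, 2 and 3 and desert tumours 2, 3 and 4 was left out (adjusted p 0.0145 to 0.258 over all alternatives). For Adamts12 it was lost in 12 of 20, including when any of inflamed tumours 1, 2 and 3 and desert tumours 1, 3, 4 and 5 was left out (0.00163 to 0.153). Comp itself had 0.741 to 1.15 FPKM in inflamed tumours and 142 to 277 FPKM in desert tumours (-6.81, SE 0.16, adjusted p = 3.21e-10). Of the 12 listed ADAMTS substrates 8 were tested, with 1 higher, 4 lower and 3 not called, beside 31.0% and 31.2% of all tested genes. Next to Comp, Col2a1, the collagen of cartilage, had 0.00619 to 0.0184 FPKM in inflamed tumours and 20.5 to 163 FPKM in desert tumours (-5.67, SE 0.44, adjusted p = 1.43e-06). Of the 13 chondrocyte markers, which include Comp and Col2a1, 8 of 8 tested were lower, their sum was 73.6 to 93.3 FPKM in inflamed tumours and 871 to 1342 FPKM in desert tumours, and the defining markers Acan, Matn1 and Hapln1 were near 0 in both. The part of such cells in the ADAMTS values was not tested.

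The ADAMTS genes that were lower in inflamed tumours came from the remaining group, whose substrates, apart from that of Adamts13, are less well known. Adamts17 (ENSMUSG00000058145) had 1.68, 1.40, 0.604, 1.65 and 1.59 FPKM in inflamed tumours, against 6.05, 6.51, 10.5, 11.7 and 7.84 FPKM in desert tumours. Adamts10 (ENSMUSG00000024299) had 1.64, 1.36, 2.06, 1.90 and 1.33 FPKM in inflamed tumours, against 3.62, 4.67, 3.93, 6.03 and 4.64 FPKM in desert tumours. Both genes are tied in humans to Weill-Marchesani-type disorders of fibrillin microfibrils, and in both every inflamed tumour was below every desert tumour. The log2 differences were -1.98 (SE 0.20, adjusted p = 8.34e-06) for Adamts17 and -1.06 (SE 0.13, adjusted p = 4.19e-05) for Adamts10. Of the fibrillin genes on the substrate list, Fbn1 had 1.87 to 6.76 FPKM in inflamed tumours and 5.64 to 11.1 FPKM in desert tumours (-0.89, SE 0.25, adjusted p = 0.00968). Fbn2 was below the filter, with 0.0629 to 0.309 FPKM in inflamed tumours and 0.380 to 1.02 FPKM in desert tumours. Adamts18 had 0, 0, 0, 0.0129 and 0 FPKM in inflamed tumours, against 0.442, 0.891, 1.90, 5.06 and 1.26 FPKM in desert tumours. That is 2 reads in inflamed tumour 4 and 0 in the other inflamed tumours, against 69 to 979 reads per desert library, and the size of its fitted difference (-1.35, SE 0.32, adjusted p = 0.00327) depends on the pseudocount. Adamts6 had 0.623 to 1.49 FPKM in inflamed tumours and 0.838 to 1.52 FPKM in desert tumours and was not called (0.06, SE 0.14, adjusted p = 0.755, with a sign that turned under other scalings). Adamts13, which cuts von Willebrand factor, Adamts16 and Adamts19 stayed at or below 0.223 FPKM in all tumours. Of these, Adamts16 had 0.00868 to 0.0498 FPKM (1 to 6 reads) in inflamed tumours and 0 in all desert tumours. There 3 reads, the limit that a count of 0 allows, would be 0.0231 to 0.0286 FPKM, within the inflamed range. Adamts19 had 0.0174 to 0.197 FPKM in inflamed tumours and 0 to 0.00442 FPKM in desert tumours, without overlap. That is 4 to 42 reads per inflamed library and 0 to 1 reads per desert library.

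**Figure D4:**
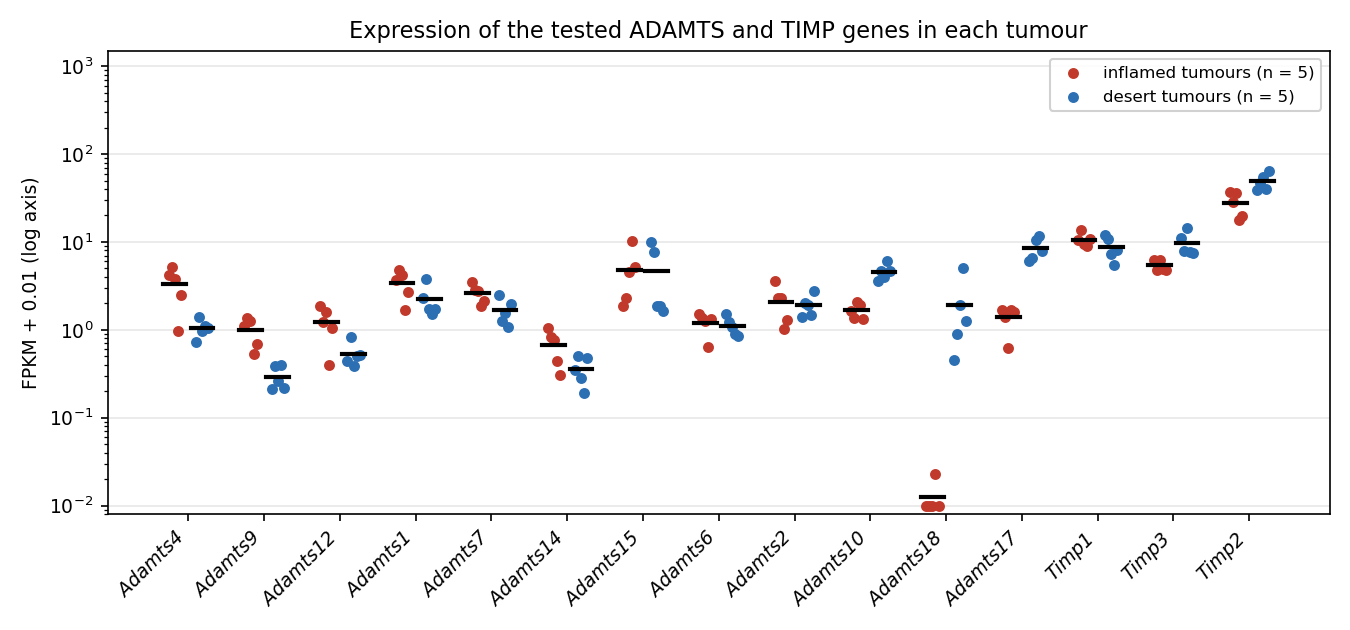
FPKM + 0.01 on a log axis for tested ADAMTS genes and TIMPs, with a point for each tumour, inflamed to the left of desert for each gene, and a line for each group's mean. Adamts17, Adamts10, Adamts18, Timp2 and Timp3 are below the desert values in all inflamed tumours, and Adamts9 is above them.

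Of the 3 tested inhibitors of MMPs 0 were called higher and 2 lower. Timp2 (ENSMUSG00000017466) had 37.4, 28.7, 36.4, 17.7 and 19.8 FPKM in inflamed tumours, against 39.1, 46.7, 54.7, 39.6 and 63.8 FPKM in desert tumours. Timp3 (ENSMUSG00000020044), which is held in the matrix, had 6.25, 4.79, 6.19, 4.96 and 4.82 FPKM in inflamed tumours, against 11.1, 7.84, 14.5, 7.73 and 7.52 FPKM in desert tumours. Both were lower in every inflamed tumour than in any desert tumour, Timp2 by a log2 difference of -0.82 (SE 0.22, adjusted p = 0.00834) and Timp3 by -0.71 (SE 0.17, adjusted p = 0.00369). The Timp3 exons share 1733 of 8144 bases with Syn3 in GENCODE M21, so part of its reads cannot be assigned without strand. Timp1, the TIMP that cytokines induce, had 10.5, 13.5, 9.40, 8.95 and 10.8 FPKM in inflamed tumours, against 12.0, 10.8, 7.28, 5.51 and 8.13 FPKM in desert tumours. The groups overlapped and it was not called (0.29, SE 0.18, adjusted p = 0.195). Timp4 had 0.135, 0.0403, 0.165, 0.0669 and 0.0726 FPKM in inflamed tumours, against 0, 0.0499, 0.295, 0.0535 and 0 FPKM in desert tumours, and was too low to be tested.

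Summed over each family, the tumours differed in how much MMP message stood beside TIMP message. The 23 MMPs summed to 664, 605, 415, 238 and 271 FPKM in inflamed tumours, against 110.4, 93.5, 90.9, 109 and 84.1 FPKM in desert tumours. The 4 TIMPs summed to 54.3, 47.0, 52.1, 31.7 and 35.4 FPKM in inflamed tumours, against 62.3, 65.4, 76.8, 52.9 and 79.5 FPKM in desert tumours. The ratio of the sums was 12.2, 12.9, 7.96, 7.51 and 7.64 in inflamed tumours, against 1.77, 1.43, 1.18, 2.06 and 1.06 in desert tumours. The MMP sums and the ratios did not overlap between groups, and they describe RNA, not active enzyme. Mmp7 alone made up 12.5% to 53.3% of the MMP sum in inflamed tumours and 12.8% to 26.8% in desert tumours. Without Mmp7 the MMPs still summed to 208 to 375 FPKM in inflamed tumours and 68.8 to 92.6 FPKM in desert tumours. In desert tumours Mmp14 was the leading MMP, with 46.3% to 63.0% of the sum, while it held 7.29% to 14.0% in inflamed tumours. The 19 ADAMTS genes summed to 20.8 to 26.5 FPKM in inflamed tumours and 25.5 to 32.3 FPKM in desert tumours, far below the MMPs in both.

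**Figure D5:**
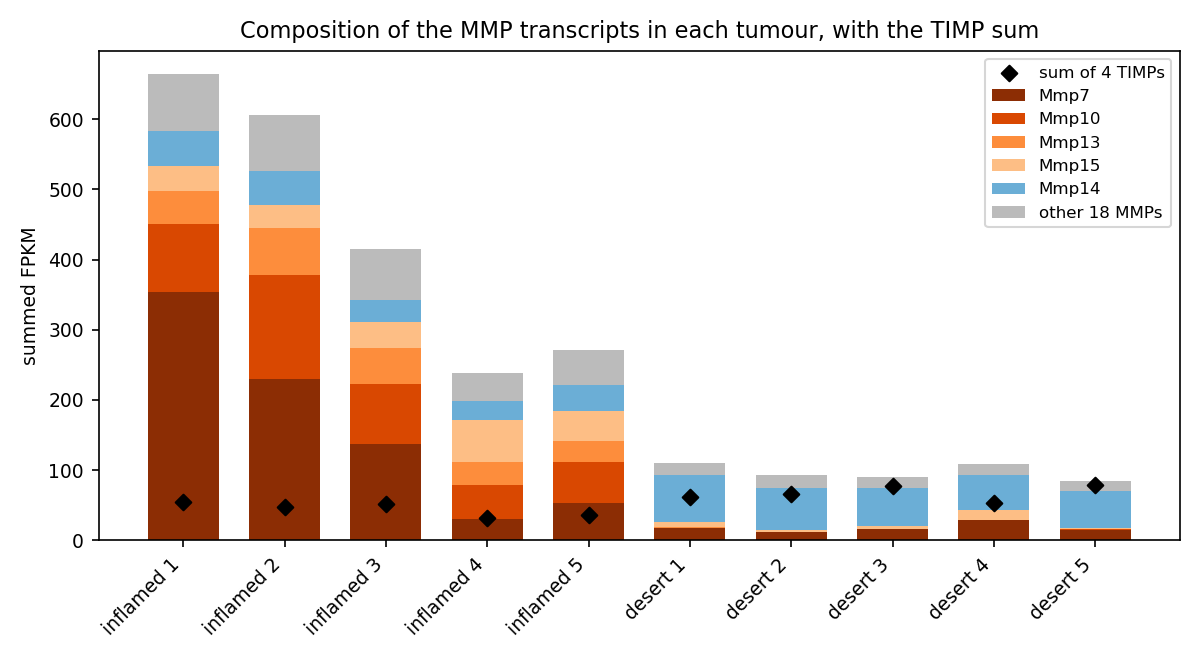
Summed FPKM of MMPs in each tumour, inflamed tumours first, stacked by gene, with the sum of the 4 TIMPs as a diamond. Mmp7 is 12.5% to 53.3% of the bar in inflamed tumours and 12.8% to 26.8% in desert tumours, and Mmp14 is 7.29% to 14.0% in inflamed tumours and 46.3% to 63.0% in desert tumours.

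Inflamed tumours 4 and 5 were lower in many members than the other 3, a split that was noticed after the values were seen. Both were the lowest inflamed tumours in 16 of the 29 tested members, 55.2%, and in 16.1% of all tested genes. The members were Mmp2, Mmp3, Mmp7, Mmp8, Mmp10, Mmp12, Mmp13, Mmp19, Adamts1, Adamts2, Adamts4, Adamts7, Adamts9, Adamts12, Adamts14 and Timp2. The same order was found in 7 of the 11 neutrophil markers, 5 of the 6 endothelial markers, 5 of the 10 fibroblast markers and 1 of the 9 macrophage markers. It was found in 1 of the 13 chondrocyte markers and 1 of 9 osteoclast and osteoblast markers. For the 5 general epithelial, 8 gastric epithelial, 7 T cell and 6 smooth muscle markers the number was 0. The smooth muscle sum was 798 FPKM in inflamed tumour 4, the highest of the inflamed tumours, and 71.9 FPKM in inflamed tumour 5, the lowest. The general epithelial sum was 6260 and 4727 FPKM in inflamed tumours 4 and 5 and 3204 to 3444 FPKM in inflamed tumours 1 to 3. The part of any of these cells in the split was not tested. S100a9 had 81.6, 85.4, 84.8, 5.54 and 12.4 FPKM in inflamed tumours and at most 0.606 FPKM in desert tumours, and the granule gene Ngp had 13.6, 6.07, 6.18, 0 and 0 FPKM in inflamed tumours. The neutrophil sum was 145 to 561 FPKM in inflamed tumours and 1.49 to 2.82 FPKM in desert tumours, and 8 of 8 tested markers were higher. The untested markers were Elane, Mpo and Ly6g, and their ranges overlapped between the groups. Elane was at 0 in all desert tumours and at or near 0 in all inflamed tumours. The mean of Mpo was lower in inflamed tumours and that of Ly6g was higher. The largest part of the inflamed sum was Ltf, with 125 to 389 FPKM, a gene that glandular epithelium also makes. The part of neutrophils in the Mmp8 and Mmp9 values was not tested. Mmp9 did not share the split, since it was highest in inflamed tumour 5 and 4.42 FPKM in tumour 4. When both tumours were left out, 18 members were higher, beside 28.4% of the 16624 genes then tested, and 5 lower, beside 29.1%.

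Beyond the members, 20 genes that activate, anchor or inhibit matrix proteases were read, of which 17 were tested, 8 higher and 5 lower, beside 31.0% and 31.2% of all tested genes, and 4 not called. Plau, the urokinase that turns plasminogen into the MMP-activating plasmin, had 36.1, 39.8, 22.9, 17.9 and 22.7 FPKM in inflamed tumours, against 2.12, 1.79, 1.44, 1.44 and 1.54 FPKM in desert tumours (3.38, SE 0.20, adjusted p = 1.74e-07). Its receptor Plaur, added after its values were seen, had 29.7 to 42.9 FPKM in inflamed tumours and 2.37 to 8.47 FPKM in desert tumours (2.72, SE 0.23, adjusted p = 2.44e-06). Plasminogen itself, Plg, was at or near 0 in all tumours. Spock2, a matrix proteoglycan of the testican family, had 36.2, 31.9, 9.50, 40.1 and 64.0 FPKM in inflamed tumours, against 712, 331, 789, 594 and 510.2 FPKM in desert tumours (-4.13, SE 0.43, adjusted p = 1.07e-05). Bsg, the MMP inducer basigin and the most abundant gene of the list beside Spock2, had 389 to 483 FPKM in inflamed tumours and 376 to 969 FPKM in desert tumours and was not called (-0.39, SE 0.21, adjusted p = 0.129). The number of lower genes on this list was 3 without inflamed tumour 4, inflamed tumour 5 or desert tumour 2, beside 29.3% to 30.6% of all tested genes. It was 2 when inflamed tumours 4 and 5 were both left out, beside 29.1%.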

How the data were processed

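RNA from 10 mouse gastric tumours was sequenced, 1 library each. The authors deposited a table of FPKM values, in which read counts are scaled by gene length and library size. The sources used here name no aligner, counter, annotation release or strandedness. Per the submitters' processing notes the build was mm10, but only 6 of the 46 members had the same start in GENCODE M21 (GRCm38) and 45 the same span length, so positions are given as deposited. The protocol text counts 6 tumours, the series 10, and all were used. Total RNA was taken with TRIzol, per the labels' protocols. Replicate numbers were read as names only: deviations of same-numbered inflamed and desert tumours correlated between -0.074 and 0.076.

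Genes were compared on log2(FPKM + 1) with limma 3.58.1 in R 4.3.3 (data.table, version 1.17.8), two-sided, with trend and robust moderation and group as the only term, after a filter of 0.5 mean FPKM. The fit was first tested on simulated data. FPKM times gene length gave whole multiples of 1 step in each library for 99.97% to 100% of values above 0, within 0.01. These gave the read numbers, and limma's voom on the reads was an alternative. Depth limits precision at the low end, and limits from counts of 0 cover counting error only. Other alternatives were pseudocounts of 0.1 and 0.01, other filters and scalings, plain moderation, a block and each library left out; leaving out inflamed tumours 4 and 5 together was added after the data had been seen. Promoter letters were searched with Python 3.11.15 and pandas 2.3.3, and figures were drawn with matplotlib 3.10.9.

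The members and gene lists were chosen with earlier results of these data known. Values per tumour were given for all TIMPs, for members called with at least 2 FPKM in the higher group or differing by at least 2, and for Mmp2, Mmp9 and Mmp14. From other lists the 2 genes with the largest difference and the 2 with the highest mean were named. Mmp8, Mmp19, Adamts18, Plaur, Plg, Fbn1, Fbn2, Col3a1, Col1a2, Birc3 and the other cluster neighbours, the list of called AP-1 factors and the marker genes given per tumour were added after their values were seen.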

Additional observations from a re-analysis of the deposited data

Results flagged for a closer look

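In each of 58 groups of 5 tumours (29 tested members, 2 groups each), the gap between the most extreme tumour and its nearest neighbour was set against the group's range, and 4 exceeded Dixon's critical value of 0.71; chance flags about 1 group in 20. Adamts17 was 0.604 FPKM in inflamed tumour 3, against 1.40 to 1.68 FPKM in the other inflamed tumours, a gap of 0.783 of the range. Adamts6 was 0.623 FPKM in inflamed tumour 4, against 1.24 to 1.49 FPKM in the others (0.75). Adamts18 was 0.0129 FPKM in inflamed tumour 4, which is 2 reads, and 0 in the others. Mmp23 was 0.279 FPKM in desert tumour 1, against 1.04 to 1.37 FPKM in the other desert tumours (0.754).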

How the results depend on the processing

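Of the 20 called members 17 kept their call in every alternative that gave a value; Adamts12, Adamts7 and Mmp14 lost it in some. Requiring a mean of 5 FPKM left 11 tested members, 6 higher (32.9% of all 8466 genes) and 3 lower (36.3%). Leaving out each library in turn gave 12 to 17 members higher, beside 28.8% to 31% of all tested genes. It gave 6 members lower each time, beside 29.3% to 30.6%. Of the protease control genes 6 to 8 were higher and 3 to 5 lower in these fits. The control genes counted 5 higher under TPM, beside 22.5% of all tested genes. They counted 3 lower with no filter (16.7% of all) and with the 5 FPKM filter (36.3%). Without inflamed tumours 4 and 5 they counted 2 lower (29.1%). Rescaling to TPM moved the median of all genes to -0.28 and quantile normalization to -0.11 (4609 higher, 6146 lower).

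Directions turned in 4 members that were not called. Under TPM the log2 difference was -0.059 for Adamts15, -0.21 for Adamts2, -0.15 for Adamts6 and -0.26 for Mmp11, under quantile normalization -0.084 for Adamts2, -0.12 for Adamts6 and -0.11 for Mmp11, under voom -0.038 for Adamts2 and -0.063 for Mmp11, and without inflamed tumours 4 and 5 -0.30 for Adamts15 and -0.046 for Mmp11. Leaving out single libraries gave -0.12 to 0.48 for Adamts15, -0.11 to 0.18 for Adamts2 and -0.064 to 0.080 for Mmp11. The cause was not tested.

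With the replicate number as a block, 15 members were higher and 6 lower (4958 and 4967 of all genes). Mmp8 (adjusted p = 0.0473) and Adamts1 (0.0311) were then called and Adamts12 (0.053) was not. The numbers do not pair the tumours: same-numbered tumours correlated between -0.074 and 0.076. Members under the filter of 0.5 FPKM, 17 of 46, are limited by depth.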

Other observations

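Close relatives of the ADAMTS genes were also read. Of 18 ADAM and ADAMTS-like genes 14 were tested, with 8 higher, 2 lower and 4 not called in inflamed tumours, beside 31.0% and 31.2% of all tested genes. Adamdec1, a secreted relative of the ADAM proteases known from gut macrophages, had 53.4, 40.9, 46.5, 15.8 and 22.7 FPKM in inflamed tumours, against 0, 0.0723, 0, 0.0215 and 0 FPKM in desert tumours (log2 difference 5.05, SE 0.29, adjusted p = 1.29e-07 by limma). Adam28, a membrane protease of epithelial and lymphoid cells, had 13.1, 19.5, 20.3, 14.2 and 12.4 FPKM in inflamed tumours and 0 in all desert tumours (adjusted p = 3.56e-09). Adam9 had 55.9 to 57.8 FPKM in inflamed tumours and 20.7 to 31.5 FPKM in desert tumours (1.08, SE 0.11, adjusted p = 6.88e-06). Adam10, the main sheddase of Notch, had 70.4 to 100.1 FPKM in inflamed tumours and 69.8 to 98.6 FPKM in desert tumours and was not called (0.04, SE 0.12, adjusted p = 0.775). The genes that were lower were Adam12, with 0.261 to 0.904 FPKM in inflamed tumours and 5.40 to 13.4 FPKM in desert tumours (-2.71, SE 0.21, adjusted p = 1.23e-06), and Adam19 (-0.61, SE 0.18, adjusted p = 0.0141), both named after their values were seen.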
